A study of Rattus norvegicus with 20 samples.

Results

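The response of neonatal rat heart cultures to celecoxib at a reference concentration of 1/25 for 24 h was taken from 5 of the 20 arrays of the study, chosen by their labels: 3 arrays of treated cultures and 2 arrays of untreated cultures. Primary cultures from hearts of newborn rats grew for a day in DMEM, and total RNA was isolated with Trizol, labelled with the dye Cy3 and hybridised to single-colour Agilent arrays of 60-base probes. The other 15 arrays hold celecoxib at concentrations 1, 1/5 and 1/25 for 6 h and at 1 and 1/5 for 24 h, 3 arrays each. The concentrations are relative ones, and an absolute dose, the strain and age of the rats in days, a vehicle and a harvest time for the untreated cultures are not given in the sources used here. No label says which arrays came from separate cultures or animals, so the p-values measure the spread between these arrays, which may be technical. All samples are labelled cardiomyocyte, and all 10 cardiomyocyte markers (Myh6, Tnnt2, Tnni3, Actc1 and others) were well above background on each of the 5 arrays, as were at least 7 of 9 kept fibroblast markers and 10 of 12 macrophage markers. The cultures are therefore described as heart cultures. In such mixed cultures a difference in the number of cells of a type and a difference in RNA per cell cannot be told apart.

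Celecoxib is a non-steroidal anti-inflammatory drug that inhibits cyclooxygenase-2, the inducible enzyme encoded by Ptgs2, in preference to the constitutive cyclooxygenase-1 encoded by Ptgs1. Both enzymes turn arachidonic acid into prostaglandin H2, from which Ptges makes prostaglandin E2 and Ptgis makes prostacyclin, a vasodilator made by vessel walls. Celecoxib also binds carbonic anhydrases.

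Probes of 7 genes that passed the test on all 5 arrays are given here, because each level given for a gene is the signal of 1 such probe. Sequences come from the scanner files, 5′ to 3′, with positions on rn3. Whole 60-base probes are given for Hs3st1 (chr14:76441330-76441389, plus strand), Mmp12 (chr8:4259057-4259413, plus strand, spread over 357 bases of the genome) and Pkp1 (chr13:48931936-48932683, minus strand, spread over 748 bases). For Gldn (chr8:57857929-57857988, plus strand), Cd83 (chr17:26708709-26708768, minus strand), Ctss (chr2:190429437-190429496, plus strand) and Cd93 (chr3:137094143-137094202, minus strand) the first 30 bases are given. A gene annotation of rn3 was not used here, so exon and UTR are not assigned.
Hs3st1: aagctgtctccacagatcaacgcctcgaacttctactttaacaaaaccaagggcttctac
Mmp12: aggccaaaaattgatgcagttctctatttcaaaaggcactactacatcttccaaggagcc
Pkp1: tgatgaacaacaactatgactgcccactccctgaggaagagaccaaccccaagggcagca
Gldn: gctggaagttgaaatggataacatctggtg
Cd83: cagtgttttgctcttgaaggactaatcaca
Ctss: ctggcttacagcttgtttgttttataactt
Cd93: agctttccaggacccctatactactagtag

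Levels are log2 of the processed signal relative to the 75th percentile of the array, so 0 is a bright probe, and a difference of 1 is a doubling. Between 65.1% and 73.2% of probes were well above background on the 3 treated arrays, against 66.1% on untreated replicate 2 and 82.5% on untreated replicate 1. The 75th percentile of untreated replicate 1 was 4.07 times its median, against 5.24 on untreated replicate 2 and 5.53 to 5.78 on the treated arrays. Across probes, the treated arrays correlated with each other at r of 0.964 to 0.971, with untreated replicate 2 at 0.948 to 0.953 and with untreated replicate 1 at 0.899 to 0.921, while the untreated arrays correlated at 0.922. Untreated replicate 1 thus stood apart from the other 4 arrays, and results are given with and without it. All 5 arrays were scanned on the same day. Both untreated arrays lay on a slide that held none of the treated arrays, so slide and treatment cannot be told apart.

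Celecoxib at 1/25 for 24 h was set against no treatment to find which genes differ at the lowest concentration and the longest time. Gldn, Cd83, Ctss, Mmp12 and Cd93 rose, and Hs3st1, Pkp1, Cdc7, Neurog2, Ambra1 and Slc7a5 were among the genes that fell, with changes of 3.33 to 8.93 times. Of 27733 genes tested, 80 (0.288%) passed an adjusted p of 0.05 in limma, fitted to all 20 arrays with Benjamini-Hochberg adjustment; 13 were higher (0.0469%) and 67 lower (0.242%). The median difference over all genes was -0.04, and 3129 genes (11.3%) had an unadjusted p under 0.05. Of the 67 lower genes, 14 entered the test through the untreated arrays alone, against 213 of the 27741 genes kept, since a probe was kept once all arrays of any 1 of the 7 groups detected it. Those 14 had to read high in untreated cultures. Of the 80 genes, 44 have a symbol. Of these, 20 were well above background on all 5 arrays, 20 were so in 1 group and on no array of the other, and 4 were so on only some treated arrays. The other 36 are known here only by transcript or probe names. The count rested on single arrays. Leaving out untreated replicate 1 gave 18 genes, 9 higher and 9 lower, of which 7 are among the 80. Leaving out untreated replicate 2 gave 231, of which 10 were higher and 221 lower, and leaving out treated replicates 1, 2 and 3 gave 38, 19 and 8. With the slide as a random block it was 3, and with only these 5 arrays in the fit it was 0.

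Gldn encodes gliomedin, a secreted and membrane-bound ligand that gathers neurofascin and sodium channels at nodes of Ranvier in peripheral nerve. It read -4.01 and -3.77 on the untreated arrays and -0.44, -0.95 and -0.79 on the treated arrays. The 2 groups were separated by far more than the spread within either, and the lowest treated array lay well above the highest untreated one. The difference was 3.16 ± 0.30 (SE), a change of 8.93 times, with an adjusted p of 0.000218 in limma, the smallest among the 20 genes measured on all 5 arrays. It stayed between 3.01 and 3.28 with any of the 5 arrays left out, and adjusted p stayed between 0.00112 and 0.0103. With the slide as a random block it was 3.1, with an adjusted p of 0.00791. With only the 5 arrays in the fit, adjusted p was 0.0845.

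Cd83, a surface protein of mature dendritic cells and activated lymphocytes, read -3.09 and -3.67 untreated and -0.82, -1.20 and -0.90 treated. The difference was 2.40 ± 0.32, or 5.29 times (adjusted p 0.00563), and it passed the threshold with any of the 5 arrays left out. With the slide as a random block its adjusted p was 0.0887. Its other probe was not well above background on any of the 5 arrays. Ctss, the lysosomal protease cathepsin S that trims the invariant chain of MHC class II, read -3.70 and -3.11 untreated and -1.77, -1.06 and -1.09 treated. Its groups did not overlap, and both of its probes moved alike, by 2.10 and 2.09 (SE 0.40, adjusted p 0.0331). Without untreated replicate 1 it differed by 1.80, with an adjusted p of 0.335.

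Mmp12, the elastase of macrophages, read -1.05 and 0.06 untreated and 1.48, 1.52 and 1.63 treated. The 3 treated arrays were closer to each other than the untreated pair, and the difference was 2.04 ± 0.36 (adjusted p 0.0245). Without untreated replicate 1 it was 1.48 (adjusted p 0.329), and without untreated replicate 2 it was 2.59 (adjusted p 0.0121). Cd93, a lectin-like receptor of endothelial and myeloid cells, read -0.71 on both untreated arrays and 1.05, 0.85 and 1.19 on the treated ones. Its difference of 1.74 ± 0.35 (adjusted p 0.045) did not pass with any 1 of the 5 arrays left out, where adjusted p ran from 0.0749 to 0.288, although the difference itself stayed between 1.66 and 1.83.

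A further pair of genes was well above background on all treated arrays and on neither untreated array. The probe of Fcrl2, an Fc receptor-like gene, is annotated as a predicted macrophage scavenger receptor 2. Fcrl2 read -1.06, -3.20 and -1.40 treated and was at least 6.69-fold higher (adjusted p 0.0203). Prkcb, protein kinase C beta, read -3.23, -2.81 and -2.96 treated and was at least 2.93-fold higher (adjusted p 0.0484). Each bound divides the mean of the brighter group by the detection limit of the dim arrays, taken per array as the lowest signal of any probe well above background, or by the probe's own signal there if higher.

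Beside these genes stand the macrophage markers, of which 12 of 12 were kept. Their summed signal, relative to the 75th percentile, was 9.85 and 9.76 on the untreated arrays and 12.6, 12.3 and 13.4 on the treated arrays. The sum adds linear signals, so bright markers such as Mrc1 weigh most in it. The mean log2 level of the markers was -1.43 and -1.92 untreated and -1.24, -1.54 and -1.31 treated, so in the mean the groups overlapped. Of the 12, 7 were higher and 5 lower, with a median difference of 0.28, and none passed the test. Mrc1, the macrophage mannose receptor, read -0.14 and 0.30 untreated and 1.80, 1.90 and 2.22 treated, a difference of 1.89 ± 0.47 with an adjusted p of 0.112. Its probe was saturated on 1 treated array. Csf1r, the receptor for macrophage colony-stimulating factor, differed by 1.66 ± 0.73 (adjusted p 0.391), and Lyz2, a lysozyme of myeloid cells, by -0.71 ± 0.39 (adjusted p 0.522). The markers thus did not read alike: 4 of the 12 were above both untreated arrays on all treated arrays, and 2 were below both. Of all genes, 13.9% were above both and 19% below both. The part of macrophages in the changes of Cd83, Ctss and Mmp12 was not tested. Of the 13 tested genes of antigen presentation, Cd83 and Ctss rose, 7 read lower and the median difference was -0.08.

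**Figure D1:**
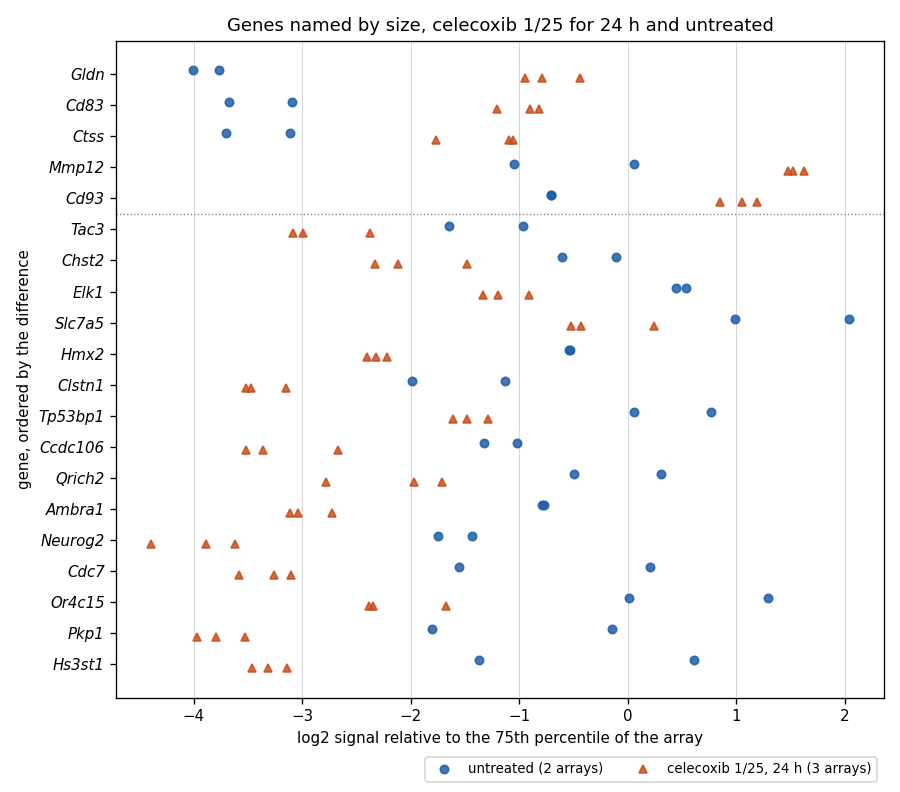
Levels of the 20 genes with a symbol that passed the test and were well above background on all 5 arrays. Circles are the 2 untreated arrays and triangles the 3 arrays of celecoxib 1/25 for 24 h, the x axis is log2 signal relative to the 75th percentile of each array, and a dotted line divides the 5 genes that rose from the 15 that fell. In the 20 genes the groups do not overlap. Of all genes, 13.9% lay above both untreated arrays on all treated arrays and 19% below both. The untreated pair is widely spaced for Hs3st1, Pkp1 and Cdc7 and close together for Ambra1, Hmx2 and Cd93.

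Among the 15 genes measured on all 5 arrays that fell, the largest difference was that of Hs3st1, the sulfotransferase that adds the 3-O-sulfate by which heparan sulfate binds antithrombin. It read 0.61 and -1.37 untreated and -3.14, -3.46 and -3.31 treated, a difference of -2.92 ± 0.49 (adjusted p 0.0203). The treated arrays were tight and the untreated ones far apart, yet the groups did not overlap. Without untreated replicate 1 the difference was -1.93 (adjusted p 0.269), and without untreated replicate 2 it was -3.91 (adjusted p 0.00501). Of the 25 tested genes of heparan sulfate synthesis and core proteins, Hs3st1 was the 1 that passed, and the list's median was -0.01. Sdc2, a syndecan, differed by 0.65 ± 0.27 (adjusted p 0.344). Chst2, a sulfotransferase of N-acetylglucosamine that is not in that list, read -0.11 and -0.60 untreated and -1.48, -2.12 and -2.33 treated, a difference of -1.62 ± 0.30 (adjusted p 0.0331). A second probe of Chst2, well above background on all 5 arrays, differed by 0.16, so its probes disagree.

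Pkp1, a plakophilin that links desmosomal cadherins to keratin filaments, read -0.14 and -1.80 untreated and -3.79, -3.97 and -3.53 treated. The difference was -2.80 ± 0.48 (adjusted p 0.0215), and without untreated replicate 1 it was -1.96 (adjusted p 0.328). Cardiac desmosomes use other plakophilins. Jup, the plakoglobin of all desmosomes, read 2.02 and 2.55 untreated and 2.93, 3.19 and 2.68 treated, a difference of 0.65 ± 0.35 (adjusted p 0.522), with its probe saturated on both untreated arrays and 1 treated array. Of 19 tested genes of nodal and desmosomal adhesion, Gldn rose and Pkp1 fell, and 13 of the 19 read lower.

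Cdc7, the kinase that starts replication origins by phosphorylating the MCM helicase, read 0.21 and -1.55 untreated and -3.10, -3.58 and -3.26 treated, a difference of -2.64 ± 0.46 (adjusted p 0.0215). Tp53bp1, a scaffold of DNA double-strand break repair, read 0.77 and 0.06 untreated and -1.29, -1.61 and -1.48 treated, a difference of -1.87 ± 0.31 (adjusted p 0.0181). A second probe of Tp53bp1, also well above background on all 5 arrays, differed by -0.07, so its probes disagree. Cdc7 is not in the list of replication genes described further on. Cdc7 differed by -1.76 (adjusted p 0.328) and Tp53bp1 by -1.52 (adjusted p 0.229) without untreated replicate 1.

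Slc7a5 encodes LAT1, the importer of large neutral amino acids such as leucine, and is a target of the transcription factor ATF4. It read 2.04 and 0.99 untreated and 0.24, -0.52 and -0.43 treated, so every treated array lay below both untreated ones. The difference was -1.75 ± 0.31 (adjusted p 0.0257), and without untreated replicate 1 it was -1.22 (adjusted p 0.347). Of 27 tested genes of ATF4 and the integrated stress response, Slc7a5 was the 1 that passed, and the median was -0.06. Trib3, a pseudokinase induced by ATF4, read 1.13 and 1.4 untreated and 1.76, 1.79 and 1.79 treated (difference 0.52 ± 0.30, adjusted p 0.558), and Ddit4, an inhibitor of mTORC1, differed by -1.30 ± 0.48 (adjusted p 0.276).

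Ambra1, a regulator of autophagy and of cyclin D turnover, read -0.79 and -0.77 untreated and -3.04, -2.72 and -3.11 treated. Both groups were tight, and the difference was -2.18 ± 0.31 (adjusted p 0.00924), or 4.53 times. Its adjusted p was 0.0574 without untreated replicate 1, 0.05 without treated replicate 3 and 0.14 with the slide as a random block, while the difference stayed between -2.30 and -2.10 with any of the 5 arrays left out. Among 29 tested genes of lysosome and autophagy, Ctss rose, none fell and the median was -0.04; Ambra1 is not in that list.

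Neurog2, a proneural factor, read -1.75 and -1.43 untreated and -3.89, -3.62 and -4.39 treated, a difference of -2.38 ± 0.47 (adjusted p 0.0441). Hmx2, a homeobox factor known from the inner ear, read -0.54 and -0.53 untreated and -2.22, -2.40 and -2.32 treated, a difference of -1.78 ± 0.36 (adjusted p 0.0484). In both the groups were far apart for their spread, but neither passed with untreated replicate 2 left out (adjusted p 0.0855 and 0.0787) or untreated replicate 1 left out (0.215 and 0.295). A probe named Elk1, an ETS factor that acts with serum response factor, differed by -1.64 ± 0.32 (adjusted p 0.0386). It lies on the plus strand, whereas a second Elk1 probe lies on the minus strand and differed by -0.54. The probes of Elk1 therefore read different strands of the locus.

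The remaining named genes were Or4c15, an olfactory receptor gene, with a difference of -2.78 ± 0.47 (adjusted p 0.0203), and Tac3, the precursor of neurokinin B, with -1.50 ± 0.30 (adjusted p 0.0441). Clstn1, a calsyntenin that ties cargo to kinesin, differed by -1.82 ± 0.37 (adjusted p 0.0462). The less studied Qrich2 and Ccdc106 differed by -2.07 ± 0.42 (adjusted p 0.0441) and -2.01 ± 0.37 (adjusted p 0.0286). In these 5 genes the highest treated array lay below the lowest untreated array, as it did in 19% of all genes. Of the 20 genes measured on all arrays, leaving out untreated replicate 1 left 2 past the threshold and untreated replicate 2 left 16, and the treated replicates 1, 2 and 3 in turn left 11, 3 and 2. The 20 genes kept their direction in each of these fits, which was fixed in advance because their groups do not overlap.

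A further 18 genes were well above background on both untreated arrays and on no treated array. Of these, 8 also passed the filter on dim probes through a celecoxib group. They were Ankrd34a, at least 7.65-fold lower (adjusted p 0.00924), Nol4l, at least 5.88-fold lower (adjusted p 0.0331), and the protocadherin Pcdhga9, at least 4.16-fold lower. Tbc1d24 was at least 3.55-fold lower, the retinol dehydrogenase Rdh7 3.3-fold, the F-box gene Fbxo10 3.14-fold, the melanosome linker Mlph 2.49-fold and Cd22, an inhibitory lectin of B cells, 1.62-fold. Ankrd34a was well above background on each of the 3 arrays at 1/25 for 6 h. A second probe of Fbxo10 was well above background on both untreated arrays and 1 treated array and differed by -1.03.

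The other 10 of the 18 passed the filter through the untreated arrays alone, so their difference is partly set by that choice and is given as a description. They were Aadacl4fm2 (at least 9.94-fold lower), Proser3 (8.4-fold), Olr1451, an olfactory receptor (5.61-fold), and Ppbp, the platelet chemokine CXCL7 (4.89-fold). Ptp4a2l1, the lymphocyte adaptor gene Samsn1, the insulin and leptin receptor adaptor gene Sh2b1, the olfactory receptor genes Or10ak7b and Or5t5 and the cytochrome gene Cyp2c7 had bounds of 1.52-fold to 3.11-fold. Olr1451 read -2.23 and -2.27 untreated and -6.62, -6.35 and -7.15 treated. With no filter on dim probes, 11 of the 18 passed. Of the 20 genes with a bound, Fcrl2 and Prkcb included, 2 still passed with untreated replicate 1 left out and 10 with untreated replicate 2 left out, and 7, 7 and 3 with treated replicates 1, 2 and 3 left out in turn.

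The last 4 genes were well above background on both untreated arrays and on some treated arrays. Notch1, a receptor of cell-to-cell signalling, read -2.36 and -1.52 untreated and -3.62, -4.72 and -4.01 treated. Plvap, a protein of endothelial fenestrae, read -2.79 and -3.03 untreated and -5.30, -6.03 and -4.44 treated, and was well above background on 1 treated array. The kinase gene Ptk6 and the sodium pump regulator Fxyd4 made up the 4. Each of these genes read lower on every treated array than on both untreated arrays, as did 19% of all genes.

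The direction of the differences varied with the brightness of the genes. When the genes were ordered by mean signal and cut into 5 bins of equal size, the median difference was -0.60 in the dimmest bin and -0.30, -0.08, 0.10 and 0.16 in the brighter ones. The dimmest bin held 40 of the 67 genes that fell and the brightest 1. Without untreated replicate 1 the medians ran from -0.25 in the dimmest bin to 0.02 in the brightest, without untreated replicate 2 from -0.99 to 0.25, and after quantile normalization from -0.06 to 0.04. Quantile normalization gave 82 genes, of which 59.8% were lower, against 83.8% of the 80. Of all genes, 13.9% read higher on all 3 treated arrays than on both untreated arrays, and 19% read lower on all 3. Lists of genes are set beside these shares below.

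**Figure D2:**
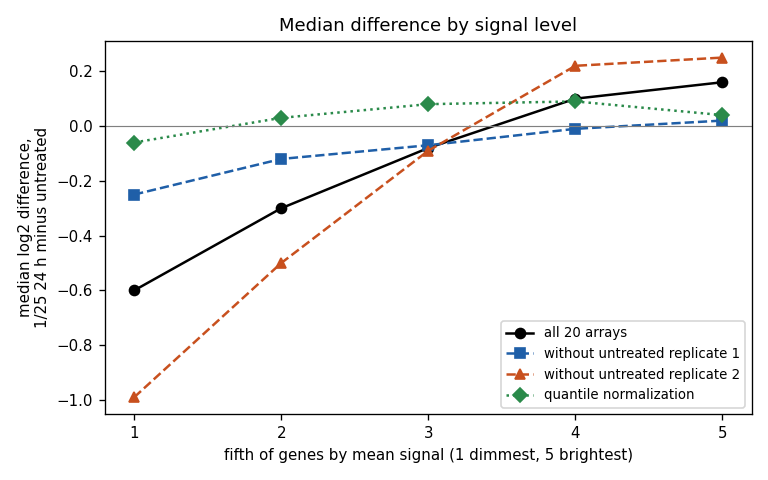
Median log2 difference between celecoxib 1/25 for 24 h and untreated (y axis) in 5 equal bins of the genes ordered by mean signal, from the dimmest (1) to the brightest (5). Black circles are all arrays, squares leave out untreated replicate 1, upward triangles leave out untreated replicate 2, and diamonds are quantile-normalized values. With all arrays the median climbs from -0.60 to 0.16, and after quantile normalization it stays between -0.06 and 0.09.

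The enzymes that celecoxib acts on showed no change that passed the test. Ptgs1 read 1.03 and 1.73 untreated and 1.48, 1.39 and 1.47 treated, a difference of 0.07 (95% interval -0.46 to 0.60). The treated arrays lay between the untreated ones. Ptgs2 read -3.87 and -2.39 untreated and -4.24, -4.23 and -3.90 treated, so the treated arrays were near or below the lower untreated array. The difference was -1 ± 0.45 (95% interval -1.95 to -0.04, adjusted p 0.412). It was -1.74 without untreated replicate 1 and -0.26 without untreated replicate 2.

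Downstream of these, Ptges, the inducible prostaglandin E synthase, differed by 0.07 (95% interval -0.64 to 0.78). Ptgis, prostacyclin synthase, read 0.11 and 0.17 untreated and 0.00, -0.10 and -0.53 treated, a difference of -0.35 (95% interval -1.11 to 0.40). The sign for Ptgs1 turned with quantile normalization (-0.08) and without untreated replicate 1 (-0.28), and that for Ptges without untreated replicate 2 (-0.28). None of the 14 tested genes of prostanoid synthesis and receptors passed, 7 read higher and 7 lower. Ptgfr, the receptor of prostaglandin F2 alpha, differed by 0.52 ± 0.40 (adjusted p 0.711).

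The carbonic anhydrases read lower in 7 of 9 tested genes, with a median of -0.62, and none passed. Car1, a cytosolic form, read -0.37 and -1.19 untreated and -1.76, -1.51 and -1.85 treated, a difference of -0.93 ± 0.36 (adjusted p 0.312). Car9, a cell surface form induced by hypoxia, differed by -0.80 ± 0.39 (adjusted p 0.459), and the mitochondrial Car5b by 0.83 ± 0.47 (adjusted p 0.546). In 5 of the 9 the treated arrays lay below both untreated arrays, against 19% of all genes, and in 1 above both, against 13.9%. For comparison, the dimmest bin of all genes had a median of -0.60. The list's median was -0.41 without untreated replicate 1 and -0.26 after quantile normalization, where that bin had -0.25 and -0.06. Without untreated replicate 2 the list had -0.7 and the bin -0.99. The members were not matched to a bin by brightness.

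Of 22 sarcomere genes 10 read higher and 12 lower (median -0.04), and of 29 genes of calcium handling and ion channels 13 read higher and 16 lower (median -0.16), with none past the threshold. Myh7, the slow myosin heavy chain of the fetal heart, read 0.85 and 1.52 untreated and 2.37, 2.48 and 1.67 treated, a difference of 0.99 ± 0.67 (adjusted p 0.644). Myl2, the ventricular regulatory light chain, differed by 0.72 ± 0.38 (adjusted p 0.497). Kcnj2, the inward rectifier that holds the resting potential, read -0.62 and -1.83 untreated and -2.12, -2.34 and -2.14 treated, a difference of -0.98 ± 0.36 (adjusted p 0.272). Kcnip2, a subunit of the channel of the transient outward current, read -3.18 and -2.65 untreated and -6.26, -5.06 and -7.19 treated, where it was not well above background on any array (adjusted p 0.153), and it too was kept through the untreated arrays alone. Of the 16 genes of hypertrophy and natriuretic peptides, 8 read higher and 8 lower. The summed signal of the 10 cardiomyocyte markers was 25.1 and 25.8 on the untreated arrays and 27.5, 28.9 and 24.0 on the treated arrays. On each of these arrays 2 or 3 of the markers were saturated.

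Mitosis genes had the highest median of the lists set out here. Of 35 tested, 31 read higher, with a median of 0.51, and in 20 of the 35 all treated arrays lay above both untreated arrays, against 13.9% of all genes; none lay below both, and none passed the test. Plk1, a kinase of mitotic entry, read -1.34 and -0.93 untreated and -0.09, -0.11 and -0.42 treated, a difference of 0.92 ± 0.29 (adjusted p 0.2). Top2a, the topoisomerase of dividing cells, read 0.83 and 1.17 untreated and 2.28, 1.61 and 2.31 treated, a difference of 1.06 ± 0.33 (adjusted p 0.202). The median of the list was 0.57 with either one of the untreated arrays left out and 0.71 after quantile normalization.

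Replication genes gave a smaller and less even picture. Of 28 tested, 16 read higher and 12 lower, with a median of 0.09 that was 0.34 without untreated replicate 1 and -0.16 without untreated replicate 2. Rrm2, the regulated subunit of ribonucleotide reductase, differed by 0.95 ± 0.31 (adjusted p 0.21), while Rrm1, its partner subunit, differed by -1.11 ± 0.35 (adjusted p 0.204). Mcm4, of the replicative helicase, differed by 0.94 ± 0.40 (adjusted p 0.373). The members thus differed in direction, and none of the 28 passed.

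Some lists of bright housekeeping genes read slightly higher. Ribosomal protein genes read higher in 72 of 93, with a median of 0.16. In the brightest bin of all genes 77.6% read higher. In 33 of the 93 all treated arrays lay above both untreated arrays, against 13.9% of all genes. Respiratory chain and ATP synthase genes read higher in 24 of 32, with a median of 0.11, and 12 lay above both untreated arrays, against the same 13.9%. These medians equal or lie under that of the brightest bin of all genes, 0.16. After quantile normalization they were 0.08 and 0.02, where that bin had 0.04. Chaperones of the endoplasmic reticulum read higher in 14 of 20 (median 0.27), and 9 lay above both untreated arrays, again against 13.9%. Dnajb9, a cofactor of the chaperone BiP, read 1.64 and 1.51 untreated and 2.21, 2.38 and 2.12 treated, a difference of 0.66 ± 0.24 (adjusted p 0.269), with its probe saturated on all 3 treated arrays. Canx, the chaperone calnexin, went the other way, at -0.78 ± 0.33 (adjusted p 0.362). No gene of these lists passed the test.

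Of 1048 genes on the array with an olfactory receptor symbol, 366 passed the filter on dim probes. Of these, 299 read lower and 67 higher, with a median of -0.61, and in 138 all treated arrays lay below both untreated arrays, against 19% of all genes. Without the filter, 816 of 1048 read lower, with a median of -0.5. Or4c15, Or10ak7b and Or5t5 passed the test, and Or10ak7b and Or5t5 were kept through the untreated arrays alone. Olr1451 carries an older type of name and is not in this count. Leaving out untreated replicate 1 gave a median of -0.17, leaving out untreated replicate 2 gave -1.10, and quantile normalization gave -0.36, while the dimmest bin of all genes had a median of -0.60, so the family stood near other dim genes. The olfactory receptor and ribosomal families were added as lists after values had been seen.

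**Figure D3:**
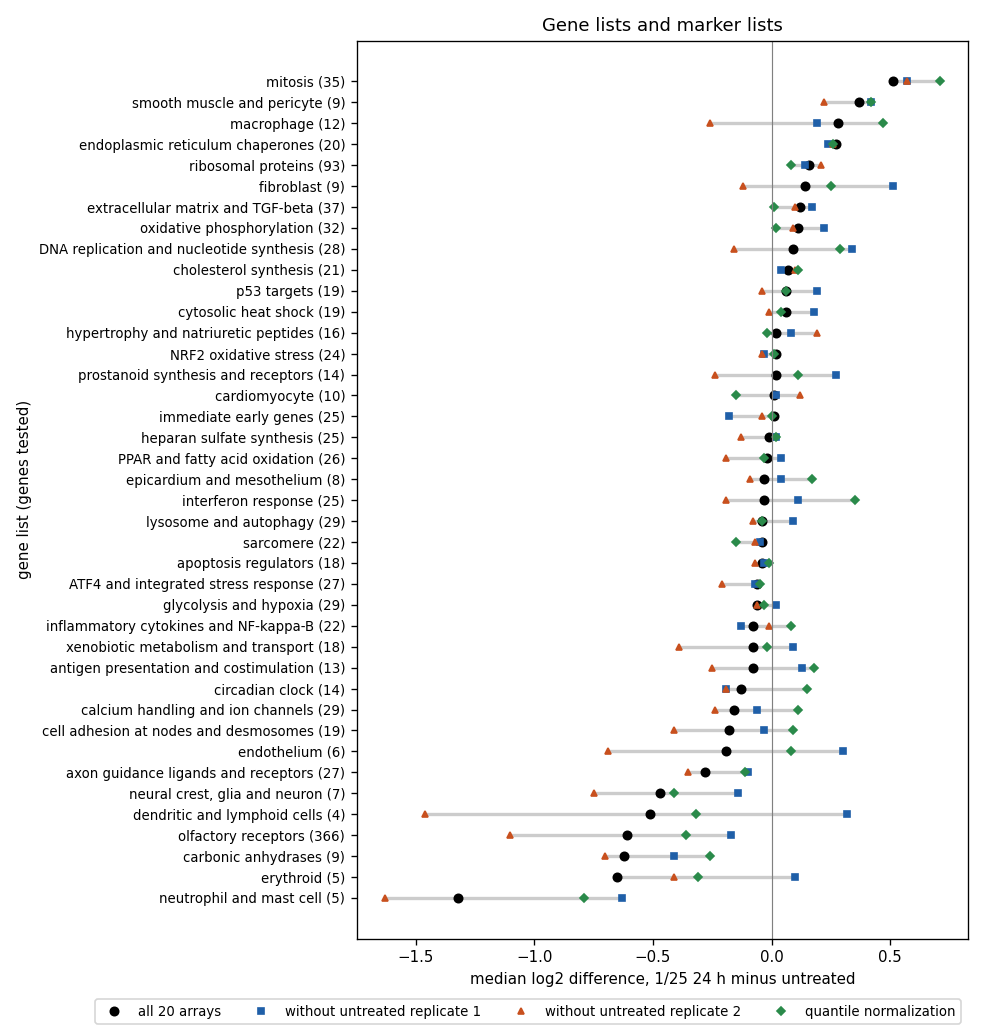
Median log2 difference between celecoxib 1/25 for 24 h and untreated (x axis) for each gene list and each cell type marker list, with the number of genes tested in brackets. Black circles are all arrays, squares leave out untreated replicate 1, triangles leave out untreated replicate 2, diamonds are quantile-normalized values, and a grey bar spans the 4. Mitosis genes stand highest at 0.51 and stay above 0 in all 4, and olfactory receptor genes at -0.61 stay below 0 in all 4, while lists such as macrophage, fibroblast and replication change sign with an untreated array left out.

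The extracellular matrix and TGF-beta list had 37 tested genes, of which 24 read higher and Mmp12 rose. Tgfb2, a TGF-beta ligand, read 1.43 and 1.89 untreated and 2.41, 2.69 and 2.50 treated (difference 0.87 ± 0.30, adjusted p 0.253), with 2 treated arrays saturated. Sparc, a collagen-binding matrix protein, differed by 1.05 ± 0.47 (adjusted p 0.411). In 13 of the 37 all treated arrays lay above both untreated arrays, against 13.9% of all genes. Axon guidance genes read lower in 20 of 27, with a median of -0.28 and none past the threshold. Among them Slit1, a repellent ligand, differed by -1.83 ± 0.45 (adjusted p 0.112), whereas Slit2 and Slit3, ligands of the same family, differed by 1.06 ± 0.30 (adjusted p 0.16) and 1.03 ± 0.33 (adjusted p 0.211).

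Lists of stress and death responses held no gene that passed apart from those named. The p53 target list had 12 of 19 higher (median 0.06), apoptosis regulators 8 of 18 (median -0.04), NRF2 targets 13 of 24 (median 0.02) and cytosolic heat shock genes 15 of 19 (median 0.06). Apaf1, the apoptosome scaffold, read 0.02 and 0.48 untreated and 1.52, 1.20 and 1.64 treated, a difference of 1.20 ± 0.38 (adjusted p 0.206). Bbc3, the BH3-only protein PUMA, differed by 0.96 ± 0.48 (adjusted p 0.476), and Bcl2, which opposes it, by -0.98 ± 0.45 (adjusted p 0.42). Casp9, a caspase of the apoptosis list, differed by -1.9 ± 0.63 (adjusted p 0.232) and was well above background on no treated array. Birc2 of the same list differed by -0.68 ± 0.51 (adjusted p 0.696). Hsf1, the heat shock factor, read -0.71 and -1.18 untreated and -2.32, -2.16 and -2.10 treated (difference -1.25 ± 0.44, adjusted p 0.259).

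Immune and metabolic lists had medians between -0.13 and 0.07. Inflammatory cytokine genes read higher in 10 of 22, interferon genes in 11 of 25 and immediate early genes in 13 of 25. Cholesterol synthesis genes read higher in 13 of 21, fatty acid oxidation genes in 11 of 26, glycolysis and hypoxia genes in 14 of 29, xenobiotic metabolism genes in 8 of 18 and clock genes in 5 of 14. Cd36, the fatty acid translocase, read -3.19 and -2.59 untreated and -5.23, -4.80 and -4.62 treated, a difference of -1.99 ± 0.53 (adjusted p 0.148), with 1 treated array well above background. Vegfa, the endothelial growth factor, read -0.37 and 0.38 untreated and -1.15, -0.69 and -1.31 treated, a difference of -1.05 ± 0.39 (adjusted p 0.289). Bhlhe41, a repressor of the clock, differed by 1.08 ± 0.37 (adjusted p 0.252), and Per1 by -0.99 ± 0.52 (adjusted p 0.496). Aldh3a1, an aldehyde dehydrogenase, read 0.02 and -0.17 untreated and -0.53, -1.46 and -2.20 treated (adjusted p 0.206).

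Markers of other cell types did not pass the test. Their sums add linear signals, so bright genes weigh most, and some bright probes were saturated. Smooth muscle and pericyte markers read higher in 7 of 9 (median 0.37), with a summed signal of 18.2 and 14.4 untreated and 21, 20 and 18.3 treated. Abcc9, a potassium channel subunit of pericytes and muscle, read -0.88 and -1.28 untreated and 0.26, 0.27 and 0.24 treated, a difference of 1.34 ± 0.31 (adjusted p 0.0897). Fibroblast markers read higher in 8 of 9 (median 0.14), with sums of 20 and 19.8 untreated and 21.2, 23.7 and 19.9 treated. Endothelial markers read higher in 1 of 6 (median -0.19), with sums of 7.83 and 8.34 against 9.48, 9.86 and 9.20. The bright Egfl7 read 2.14 and 2.35 untreated and 2.75, 2.79 and 2.57 treated. Its probe was saturated on both untreated arrays and 2 treated arrays.

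Markers of blood and nerve cells had negative medians, and untreated replicate 1 was high for several of them. The 4 kept dendritic and lymphoid markers summed to 4.97 and 0.843 untreated and 0.686, 0.493 and 0.697 treated, and their median of -0.51 became 0.32 without untreated replicate 1. Among them Nkg7 read 1.95 and -1.02 untreated and -2.97, -3.05 and -2.44 treated. Neutrophil and mast cell markers read lower in 4 of 5 (median -1.32, or -0.63 without that array), with sums of 5.96 and 6.12 against 5.42, 6.97 and 5.62. Erythroid markers summed to 2.31 and 2.19 untreated and 1.71, 1.45 and 1.67 treated, and neural markers to 5.53 and 3.55 against 3.47, 3.78 and 4.13. Epicardial markers read higher in 3 of 8. Klrd1 of the lymphoid list and the myeloid peroxidase Mpo were well above background on none of the 5 arrays.

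The concentrations were compared at 24 h to find whether 1/25 differed from 1 and 1/5. The slide of the 1/25 arrays held no array of concentration 1, so slide and concentration cannot be told apart there. Of the 1/5 arrays only replicate 3 lay on that slide. No gene passed between 1 and 1/25 (0% of 27739; 816 genes with an unadjusted p under 0.05, 2.94%) or between 1/5 and 1/25 (0% of 27739; 1075 genes, 3.88%) in limma. With array weights 10 and 44 genes passed. For Gldn, concentration 1 minus 1/25 was 0.10 (95% interval -0.47 to 0.67) and 1/5 minus 1/25 was -0.02 (-0.59 to 0.55). For Hs3st1 these differences were -0.41 (-1.34 to 0.52) and -0.13 (-1.06 to 0.80). The intervals are per gene and not adjusted for the number of genes.

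Other named genes had intervals that left out 0 without passing the adjusted threshold. They were named for large differences from untreated at 1/25, and the same 1/25 arrays enter these comparisons. That choice favours differences back toward the untreated level at the other concentrations, so the values are given as a description. Slc7a5 read 1.07, 1.49 and 0.83 at concentration 1, and -0.37, -0.22 and -0.45 at 1/5, against 0.24, -0.52 and -0.43 at 1/25. Concentration 1 minus 1/25 was 1.37 (0.77 to 1.96, adjusted p 0.801), and 1/5 minus 1/25 was -0.11 (-0.70 to 0.48). The arrays of concentration 1 all lay above those of 1/25. For Ambra1 the differences were 1.25 (0.67 to 1.83) and 0.44 (-0.15 to 1.02). For the plus-strand probe named Elk1 they were 1.00 (0.40 to 1.60) and -0.16 (-0.76 to 0.44). Cd93 read 0.09, 0.13 and -0.03 at concentration 1 and -0.22, 0.40 and -0.15 at 1/5, all below the 1/25 arrays, with differences of -0.96 (-1.63 to -0.30) and -1.01 (-1.68 to -0.35). None of these differences passed after adjustment.

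Against the same untreated arrays, which all these comparisons share, the differences at concentrations 1, 1/5 and 1/25 for 24 h were 3.26, 3.14 and 3.16 for Gldn and 2.20, 1.98 and 2.40 for Cd83. They were 1.80, 2.30 and 2.10 for Ctss, 0.77, 0.72 and 1.74 for Cd93 and -3.33, -3.06 and -2.92 for Hs3st1. For Slc7a5 they were -0.39, -1.86 and -1.75, and for Ambra1 -0.93, -1.74 and -2.18. The mitosis list had medians of 0.53, 0.44 and 0.51, and the olfactory receptor list -0.89, -0.74 and -0.61. Because the untreated arrays are the same, these series are not independent of each other.

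**Figure D4:**
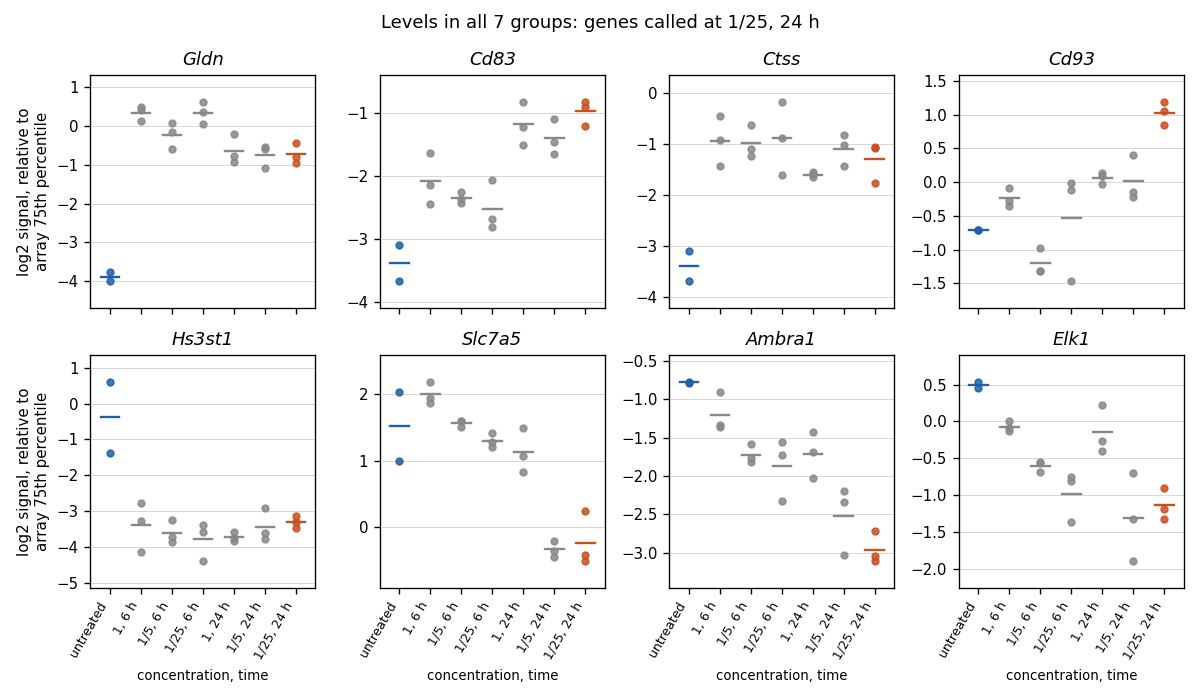
Levels on every array (points) and group means (lines) of 8 genes in the 7 groups, as log2 signal relative to the 75th percentile of the array, with untreated in blue and celecoxib 1/25 for 24 h in orange. Gldn, Ctss and Hs3st1 stand apart from untreated in all 6 celecoxib groups. Cd93 is highest at 1/25 for 24 h, and Slc7a5 is lowest at 1/5 and 1/25 for 24 h. The panel named Elk1 shows the plus-strand probe.

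Time was compared at 1/25, where 24 h was set against 6 h. Here 681 of 27740 genes (2.45%) passed in limma, 299 higher at 24 h (1.08%) and 382 lower (1.38%). The prostanoid enzyme Ptgs2, the xenobiotic enzyme Cyp1a1 and the protease inhibitor Tfpi2 were lower at 24 h, and the natriuretic peptide gene Nppc was higher. No untreated arrays are labelled 6 h or 24 h, so a change in the response to celecoxib and time in culture cannot be told apart. Of the 6 h arrays, replicates 2 and 3 were scanned on another day. The 24 h arrays at 1/25 lay on a slide that held no 6 h array, so slide and time cannot be told apart. With scan day as a block, 637 genes passed, 482 higher and 155 lower, and 171 of the 681 were among them. With arrays of the first scan day alone, 342 passed, 278 higher and 64 lower, but this leaves 1 array at 6 h, whose spread is taken from the other groups. The count was 13 with the slide as a random block and 4 with only these 6 arrays in the fit. It was 55, 225 and 100 without 24 h replicates 1, 2 and 3, and 4265, 1051 and 94 without 6 h replicates 1, 2 and 3. With the slide as a random block, Ptgs2, Tfpi2 and Nppc passed in limma (adjusted p 0.0118, 0.0207 and 0.0346). Cyp1a1 did not (adjusted p 0.0934).

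Ptgs2 read -0.74, -0.39 and 0.23 at 6 h and -4.24, -4.23 and -3.90 at 24 h. The groups lay far apart, with a difference of -3.83 ± 0.40 (adjusted p 0.000312), or -3.24 with scan day as a block (adjusted p 0.00247). Tfpi2, an inhibitor of plasmin and other serine proteases, read -0.10, -1.07 and -0.03 at 6 h and -4.55, -3.50 and -3.38 at 24 h, a difference of -3.41 ± 0.40 (adjusted p 0.000588). At 24 h it differed from untreated by 0.27 ± 0.44 (adjusted p 0.904), so the 24 h level lay near the untreated one. Cyp1a1, the target gene of the aryl hydrocarbon receptor, read -1.74, -1.14 and -0.25 at 6 h and was not well above background at 24 h, at least 12.9-fold lower (adjusted p 0.00216). Its untreated arrays read -6.23 and -2.20, and its difference from untreated, -2.50 ± 0.85, did not pass (adjusted p 0.24).

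Among the other genes lower at 24 h, Slc7a8, the amino acid exchanger LAT2, read -1.06, 1.06 and 2.16 at 6 h and -3.03, -2.43 and -2.71 at 24 h, a difference of -3.44 ± 0.70 (adjusted p 0.0221). The 2 arrays of the other scan day were the high ones at 6 h, and the difference was -1.60 with scan day as a block (adjusted p 0.0284) and -1.66 within the first day (adjusted p 0.0587). Ass1, argininosuccinate synthase of the urea and arginine cycle, was at least 2.99-fold lower (adjusted p 0.00477). Nppc, the precursor of C-type natriuretic peptide, read -3.71, -2.48 and -2.81 at 24 h and was not well above background at 6 h, at least 5.12-fold higher at 24 h (adjusted p 0.000973). It read -3.86 and -2.78 untreated, close to its 24 h level.

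Higher at 24 h were also Csf1r, at least 3.80-fold (adjusted p 0.0394), the cytochrome Cyp2u1, at least 3.63-fold (adjusted p 0.00757), and Erg, an ETS factor of endothelium, at least 3.54-fold (adjusted p 0.00776). Csf1r was well above background on 2 of the 3 arrays at 24 h. With scan day as a block Csf1r differed by 1.89 (adjusted p 0.176). With the slide as a random block, Csf1r (adjusted p 0.241), Cyp2u1 (0.171) and Erg (0.115) did not pass in limma. Slc7a8 (0.19) and Ass1 (0.0765) did not pass there either. Tkfc, which phosphorylates dihydroxyacetone, differed by 2.83, but its 24 h value comes from 1 array, as outlier spots were left out on the other 2, and its spread is taken from other groups.

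Several genes that separated 24 h from untreated also separated it from 6 h. They were picked on the same 24 h arrays, which favours differences from 6 h in the direction of those from untreated. Cd83 read -2.06, -2.81 and -2.68 at 6 h, a difference of 1.54 ± 0.29 (adjusted p 0.0145), and Cd93 read -0.11, -1.47 and -0.01, a difference of 1.56 ± 0.31 (adjusted p 0.0221). Both were thus higher at 24 h than at 6 h. Gldn read 0.63, 0.36 and 0.05 at 6 h and was lower at 24 h by 1.08 ± 0.27 on the log2 scale (adjusted p 0.0457), though far above untreated at both times. Slc7a5 was lower at 24 h (-1.54 ± 0.28, adjusted p 0.0134), as was Ambra1 (-1.09 ± 0.28, adjusted p 0.046). With scan day as a block, adjusted p was 0.0464 for Cd83 and 0.0258 for Slc7a5, which still passed, and 0.0669 for Cd93, 0.0585 for Gldn and 0.122 for Ambra1, which did not. Hs3st1 read -3.38, -3.57 and -4.40 at 6 h and differed by 0.48 ± 0.44 (adjusted p 0.578).

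**Figure D5:**
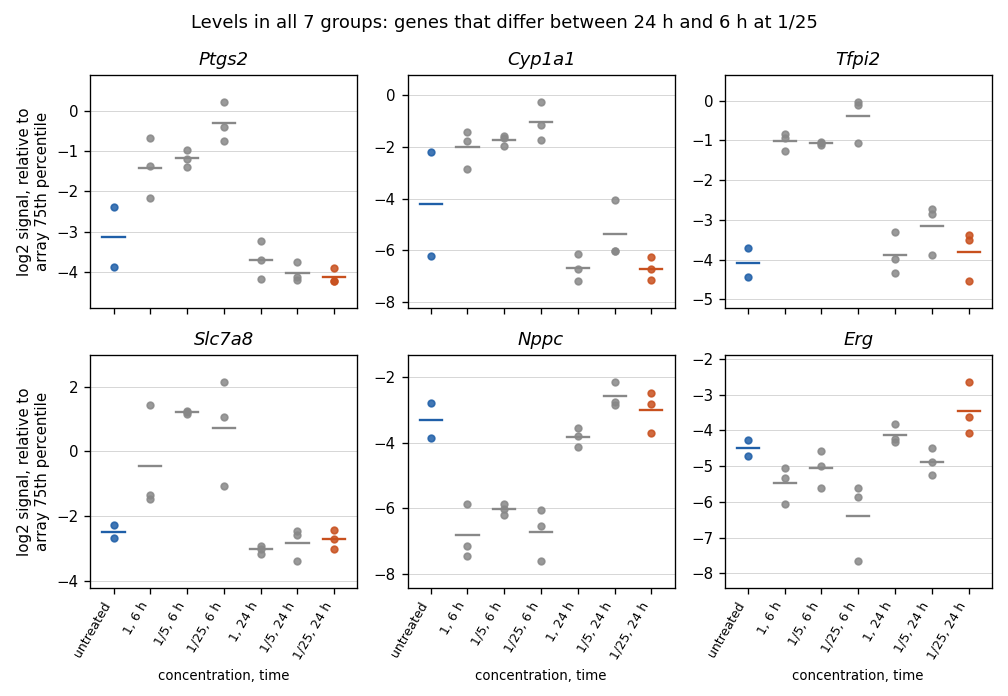
Levels on every array (points) and group means (lines) of 6 genes with a difference between 24 h and 6 h at 1/25, in the 7 groups, as log2 signal relative to the 75th percentile of the array. Ptgs2, Cyp1a1, Tfpi2 and Slc7a8 are higher in the 6 h groups than at 24 h, Nppc is lower in all 6 h groups, and the untreated arrays (blue) lie near the 24 h levels for Tfpi2, Slc7a8 and Nppc.

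Among the lists, 8 of 35 mitosis genes were higher at 24 h than at 6 h and none lower, with a median of 0.54, against 1.08% of all genes higher and 1.38% lower. With scan day as a block, 1 of the 35 passed, and the median was 0.6. Nuf2 and Ndc80, kinetochore proteins, differed by 1.62 ± 0.32 (adjusted p 0.0194, with the block 0.0497) and 1.25 ± 0.25 (adjusted p 0.0197, with the block 0.0554). Replication genes had a median of 0.76, and Lig1 and Mcm4 were higher, but with the block the median was 0.56 and none passed. Interferon genes had 4 of 25 higher, and 1 with the block. Among them the peptide transporter Tap1 differed by 2.40 ± 0.50 (adjusted p 0.024, with the block 0.0707).

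The chemokine Ccl2 was lower at 24 h (-1.42 ± 0.36, adjusted p 0.046), and it was so with scan day as a block (-2.03, adjusted p 0.0109). Ccl20, another chemokine, differed by -2.87 ± 0.71 (adjusted p 0.0424), and by -1.19 with the block (adjusted p 0.209). Pdgfrb, the growth factor receptor of pericytes, was higher by 1.81 ± 0.28 (adjusted p 0.0058), and by 1.56 with the block (adjusted p 0.0184). Over all genes the median difference between 24 h and 6 h was 0.10.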

How the data were processed

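Total RNA of 20 samples of heart cultures was labelled with Cy3 and hybridised to 1-colour arrays. Per the file headers, spot intensities were background-subtracted and detrended by the authors with Agilent Feature Extraction 9.5.3.1. The authors' deposited table holds a ratio to the mean of the untreated arrays, after each array was divided by its median, as its agreement with the scanner files showed; its log2 served as an alternative. Here log2 of the processed signal was taken minus each array's 75th percentile. Outlier spots were left out, spots of a probe averaged, and probes kept if well above background on every array of a group (31739 of 41012). The brightest kept probe stood for a gene (27741 genes). Names came from RefSeq by accession or symbol. Groups were compared with limma 3.58.1 in R 4.3.3 on 7 group means over all 20 arrays, which leave 13 residual degrees of freedom, with Benjamini-Hochberg adjustment and a threshold of 0.05. The number of arrays limits the precision. Errors are standard errors of the fit. Steps were tested on simulated data. Named genes are the called genes with a symbol, up to 15 each way by size, those with only a bound, up to 4 members a list by p, the prostanoid enzymes and up to 5 each way in the other comparisons; the 4 genes seen on some treated arrays were added after their values were seen. The members and gene lists were chosen with earlier results of these data known. Alternatives changed the normalization, background correction, filters, probe choice, blocks, moderation and arrays.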

Additional observations from a re-analysis of the deposited data

Results flagged for a closer look

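Levels with celecoxib 1/25 differed between 24 h and 6 h, by a test of the difference itself, for 681 genes. The untreated arrays carry no time, so a change in the response to celecoxib and time in culture cannot be told apart. Of the 6 h arrays, 2 of 3 were scanned on another day than the 24 h arrays. The part of scan day in these differences was not tested beyond a fit with scan day as a block. The 24 h arrays lay on a slide that held no 6 h array, so slide and time cannot be told apart. The genes that differed from untreated at 24 h were picked on these same 24 h arrays. Among them, the difference between 24 h and 6 h was -1.08 for Gldn, 1.54 for Cd83 and 1.56 for Cd93. It was -1.09 for Ambra1, -1.54 for Slc7a5 and -2.14 for Ankrd34a. Among the genes with the largest differences it was -3.83 for Ptgs2, -5.68 for Cyp1a1, -3.67 for Ass1, -3.44 for Slc7a8 and -3.41 for Tfpi2, and 3.73 for Nppc, 2.94 for Cyp2u1, 2.93 for Erg, 2.83 for Tkfc and 2.73 for Csf1r. With scan day as a block these 10 differences were -3.24, -5.03, -3.84, -1.60, -3.52, 3.08, 2.69, 2.76, 2.67 and 1.89 in the same order, and those of Tkfc (adjusted p 0.0885) and Csf1r (adjusted p 0.176) did not pass in limma. The 24 h value of Tkfc comes from 1 array, with its spread taken from other groups. Of the other 6 genes, with the block, Cd83 (adjusted p 0.0464) and Slc7a5 (0.0258) passed, and Cd93 (0.0669), Gldn (0.0585), Ambra1 (0.122) and Ankrd34a (0.0664) did not. With the slide as a random block in limma, Ptgs2, Tfpi2 and Nppc passed, and Cyp1a1, Ass1, Slc7a8, Cyp2u1, Erg and Csf1r did not.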

How the results depend on the processing

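The count of genes that differed between 1/25 for 24 h and untreated, 80, became 40 with the array median as scale, 37 with the authors' deposited table, 22 with only probes well above background on all 20 arrays and 34 with trended, robust moderation. It became 237 with scan day as a block, 203 with scan day 1 alone, 345 with only untreated and 24 h arrays, 3 with the slide as a random block and 0 with only the 5 arrays (3875 at an unadjusted p under 0.05 in limma). Leaving out 1 array gave 8 to 231 genes, and in fits to untreated and 24 h arrays alone, chosen after seeing the data, 43 without untreated replicate 1 and 2226 without untreated replicate 2. Normexp gave 119, no filter 61, the mean of a gene's probes 77 and array weights 63. The array median moved the median of all genes from -0.04 to 0.25. For 24 h against 6 h, 681 became 1036 with normexp, 284 without a filter, 342 with scan day 1, 13 with the slide as a random block, 1161 with array weights and 4 with only the 6 arrays, and 55 to 4265 without 1 array. The lower share of 56.1% there was 73.2% with the array median, 72.2% with the deposited table, 24.3% with scan day as a block and 18.7% with scan day 1. Fits with only untreated and 24 h arrays give no value for it. Between 1 and 1/25, 0 became 1 with the strict filter, 2 with scan day as a block, 10 with array weights and 1 with trended moderation, and between 1/5 and 1/25, 0 became 44 with array weights. Ptgs1 (0.07) was -0.08 after quantile normalization and ran from -0.28 to 0.42 without 1 array, and -0.28 without untreated replicate 1 in the fit to untreated and 24 h arrays. Ptges (0.07) was 0 with the slide as a random block, ran from -0.28 to 0.42 without 1 array, -0.04 without treated replicate 1 among them, and was -0.28 without untreated replicate 2 in that smaller fit. The replicate numbers showed no pairing on average: deviations of same-numbered arrays of different groups correlated at a mean of -0.00402 and of others at 0.00189. Single same-numbered pairs ran from -0.438 to 0.463, so pairing between some groups is not settled. With the replicate number as a block, the counts were 58, 0, 0 and 790. The causes of these shifts were not tested. Quantile normalization moved the macrophage marker mean difference from 0.31 to 0.53 and that of cardiomyocyte markers from 0 to -0.08.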
